A study of Mus musculus with 10 samples.

Results

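Predicted mRNAs are transcripts that the authors assembled from their own reads, gave no known identifier and took as protein-coding. The transcripts described here are the 123 of 2117 predicted mRNAs that had an expected count of at least 50 in each of 4 testes samples, out of 84289 transcripts of all kinds in the tables. The expected count estimates how many sequenced fragments a transcript gave. The 123 transcripts were thus chosen by their testes counts, and everything below on their testes levels, and on sperm or cadmium set against those levels, is a description. Their sperm values took no part in the choice.

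RNA came from mice labelled C57BL/6 (C57BL/6J in the study's methods) and 3 to 5 months old, either injected once into the peritoneum with CdCl2 at 3 mg/kg or given saline, and killed on day 35. Cadmium is a toxic metal to which the testis is sensitive. Control sperm was sequenced in 4 samples, control testes in 2, cadmium sperm in 2 and cadmium testes in 2. Whole testes hold germ cells of every stage together with Sertoli, Leydig and other somatic cells, whereas sperm was taken from the cauda epididymis and vas deferens and freed of somatic cells by lysis. The labels give 50 mice for each treatment without saying which of them, or how many, entered each cadmium sample, so the tests measure only the spread between these samples. The study's methods, which give another number and age range of mice, describe control sperm as pools and take the testes from the same mice. Control sperm and control testes thus shared animals, while the test between them treats their samples as independent. The study left control sperm replicate 1 out, and it is left out of the control means and tests here but shown with its values. In bulk RNA of this kind, fewer cells of a type and less RNA per cell cannot be told apart.

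Male germ cells transcribe an unusually large part of the genome while they pass through meiosis and the round spermatid stage. Transcription then stops as histones give way to protamines and the chromatin is packed. Mature sperm therefore carry RNA that was made earlier in the testis and kept, together with much that has been broken down. Assembled transcripts that match no annotated gene are frequent in testis RNA, and a coding call on them rests on their sequence, not on a detected protein.

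The summed expected counts were 366455 to 1058017 per control sperm sample, 1155491 and 1254477 in cadmium sperm, and 2606086 to 2866856 in testes, so that 3 counts were worth between 1.05 and 8.19 CPM (counts scaled to equal library totals). All 5 spermatid markers (Prm1, Prm2, Tnp1, Tnp2 and Acrv1) were above 0 in some sample of every group. They summed to 49 to 172 counts in control sperm, 265 and 315 in cadmium sperm and 556 to 787 in testes. In control sperm most were Prm2, at 45 to 148 counts, with Tnp2 at 0 to 18, Prm1 at 0 to 6, and Tnp1 and Acrv1 at 0 to 2. Scaled, the spermatid sums overlapped, at 127 to 268 CPM in control sperm, 229 and 251 CPM in cadmium sperm and 213 to 275 CPM in testes. The 5 spermatocyte markers were all at 0 in control sperm and summed to 0 and 4 counts in cadmium sperm, against 15 to 36 counts in testes. Leydig markers, nearly all of them Star, summed to 0 to 40 counts in control sperm, 16 and 31 in cadmium sperm and 119.9 to 187 in testes. Scaled to library size these were 0 to 109 CPM in control sperm, the highest in replicate 3, 13.8 and 24.7 CPM in cadmium sperm and 44.3 to 65.2 CPM in testes. Sertoli markers summed to at most 18 counts, epididymal epithelium markers to at most 45 (in cadmium testes replicate 2) and leukocyte markers, 4 of 5 of which were found, to at most 14. Of the epididymal markers, Adam7 was higher in replicate 2 of both testes groups. It was at 1 and 11 counts in control testes replicates 1 and 2, and at 0 and 33 in those of cadmium testes. Scaled, Sertoli markers were at 0 to 28.3 CPM in control sperm, the highest from 12 counts of Amhr2 in replicate 1. They were at 4.33 and 9.55 CPM in cadmium sperm and at 0.734 to 6.28 CPM in testes. Epididymal markers reached 9.84 CPM in sperm and 16.6 CPM in testes, and leukocyte markers 9.52 and 5.17 CPM.

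The 123 transcripts came from 117 loci of the authors' assembly, of which 111 gave 1 of them and 6 gave a pair. Of all expected counts they took 1.79% and 1.56% in control testes, and 1.71% and 1.57% in testes after cadmium. In control sperm they took 0.959, 0.983, 0.885 and 0.995%, and in cadmium sperm 1.53 and 1.22%. The testes shares thus lay above those of every sperm sample, although cadmium sperm replicate 1 came close to the lowest of them. At the edge of the choice, MTCONS_00126948, MTCONS_00067980 and MTCONS_00037964 just passed with lowest testes counts of 51.02, 51.64 and 51.81. MTCONS_00032945, MTCONS_00026376 and MTCONS_00031460 just missed with 49.42, 49.3 and 48.58.

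The level of a transcript is given as FPKM, the expected count divided by the length of the transcript and the size of the library. The deposited values correspond to a length less 42 to 55 bases, depending on the sample. Within testes the 123 transcripts covered more than 3 orders of magnitude, from 0.75 to 1216 FPKM. Their median was 30.6 and 19.3 FPKM in the control testes samples and 28.75 and 20.85 FPKM in those given cadmium. In control sperm the median was 9.15, 7.38, 2.97 and 8.10 FPKM, and in cadmium sperm 11.3 and 9.65 FPKM. Every sperm sample therefore had a lower median than every testes sample. A minimum on counts is not a minimum on FPKM, and 3 of the transcripts, all of them long, were below 1 FPKM in a control testes sample.

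**Figure D1:**
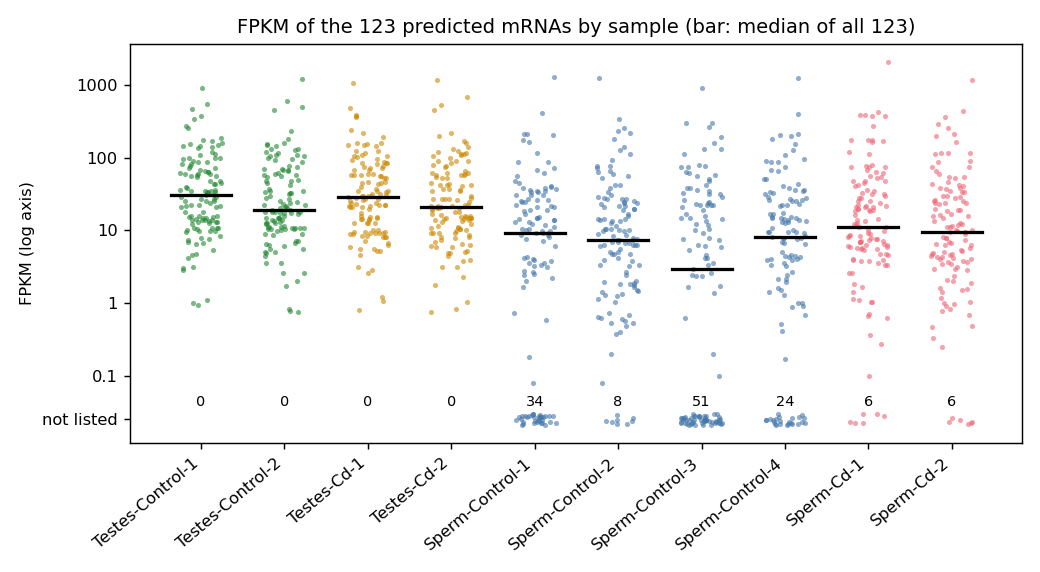
FPKM on a log axis of each of the 123 predicted mRNAs (points) in each of the 10 samples, with the median as a bar and transcripts that a sample did not list at the bottom, with their number. The medians lie between 19.3 and 30.6 FPKM in testes and between 2.97 and 11.3 FPKM in sperm, and 6 to 51 transcripts were not listed in a sperm sample.

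A few transcripts held much of the level. The 10 highest in a sample summed to 44.5 to 52.1% of the FPKM of all 123 in testes and to 62.4 to 67.2% in sperm. Among the 21083 known and predicted mRNAs, 26 of the 123 were among the 100 highest in control testes, and 15 were among the 100 highest in control sperm. The 123 had passed a minimum in testes that only 699 known mRNAs also met, and nothing is read from these numbers.

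The highest in testes was MTCONS_00037136, 808 bp long, at 915 and 1216 FPKM in control testes and 1087 and 1176 FPKM in cadmium testes, which ranked 4 among all mRNAs of control testes. In sperm it was listed at 0, 7.36, 32.4 and 0 FPKM in the controls and at 55.0 and 22.8 FPKM after cadmium. All 6 sperm samples were thus far below all 4 testes samples, by 80.4-fold on the means of control sperm replicates 2 to 4 and control testes. MTCONS_00127450 (2911 bp) was at 344 and 494 FPKM in control testes and 386 and 541 FPKM in cadmium testes. Its sperm values were 21.3, 27.1, 19.0 and 32.2 FPKM in the controls and 28.3 and 66.2 FPKM after cadmium, again all below testes, with a control sperm mean of 26.1 FPKM against a control testes mean of 419 FPKM. MTCONS_00129459 (3180 bp) differed by 15.8-fold on the same means, from 154 and 162 FPKM in control testes to 0, 7.80, 7.82 and 14.3 FPKM in control sperm.

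Other transcripts near the top in testes kept a larger share of their level in sperm. MTCONS_00079498 (1269 bp) was at 467 and 615 FPKM in control testes, 379 and 689 FPKM in cadmium testes, 168, 179, 265 and 201 FPKM in control sperm and 376 and 199 FPKM in cadmium sperm. The sperm values lay below the testes values, with a 2.51-fold difference of the control means, though the highest sperm value was within 1% of the lowest in testes. MTCONS_00110164, with 7289 bp the longest of the 10 highest in testes, was at 147 and 181 FPKM in control testes and 38.5, 26.8, 38.7 and 25.9 FPKM in control sperm.

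MTCONS_00083201 (2077 bp) was the highest of the 123 in every sperm sample. It was at 1299, 1242, 932 and 1276 FPKM in control sperm and 2084 and 1181 FPKM in cadmium sperm, against 544 and 453 FPKM in control testes and 480 and 458 FPKM in cadmium testes. Each sperm sample was above each testes sample, and the transcript ranked 5 among all mRNAs of control sperm and 7 in control testes. The largest ratio of sperm to testes belonged to MTCONS_00017872 (4514 bp), at 205, 141, 303 and 128 FPKM in control sperm and 114 and 362 FPKM in cadmium sperm. In testes it was at 10.8 and 8.74 FPKM in the controls and 8.92 and 10.5 FPKM after cadmium, so its control sperm mean of 191 ± 97.3 FPKM (SD, n = 3) was 19.5-fold above its control testes mean of 9.78 ± 1.46 FPKM (n = 2). MTCONS_00069693 (1579 bp) was at 117, 94.1, 81.0 and 153 FPKM in control sperm and 178 and 91.1 FPKM in cadmium sperm, against 13.3 to 23.2 FPKM in testes, a 6.52-fold ratio of the control means.

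In 10 of the 123 transcripts all 6 sperm samples were above all 4 testes samples, in 62 they were all below, and in 51 the 2 sets overlapped. Of all 36203 transcripts that reached 1 FPKM in 2 or more samples, 3.5% had every sperm sample above every testes sample and 22.3% had every one below. Besides MTCONS_00083201, MTCONS_00017872 and MTCONS_00069693, the 10 higher ones included MTCONS_00032723 (1182 bp), at 303 to 414 FPKM in control sperm and 110 to 147 FPKM in testes. They also included MTCONS_00144686 (959 bp), at 175 to 254 FPKM in control sperm and 63.3 to 88.2 FPKM in testes, and MTCONS_00032947 (1793 bp), at 130.5 to 223 FPKM in control sperm and 44.99 to 67.4 FPKM in testes. The other 4 were MTCONS_00004544, MTCONS_00020950, MTCONS_00124348 and MTCONS_00124212, with ratios of the control means between 2.20 and 4.74. MTCONS_00015314 was at 129, 134 and 108 FPKM in control sperm replicates 2 to 4 and at 21.75 to 28.75 FPKM in testes, but it was not listed in control sperm replicate 1.

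**Figure D2:**
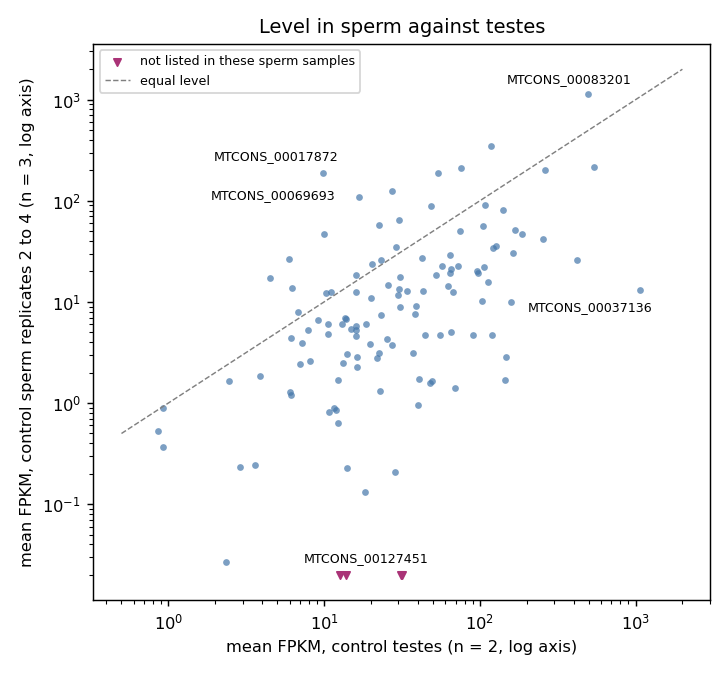
Mean FPKM of each of the 123 predicted mRNAs in control sperm replicates 2 to 4 against control testes, both on log axes, with equal level as a dashed line and transcripts not listed in these sperm samples as triangles. MTCONS_00017872 stands 19.5-fold above the line and MTCONS_00037136 stands 80.4-fold below it.

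By edgeR's quasi-likelihood test on control sperm replicates 2 to 4 against control testes, called at an adjusted p (Benjamini-Hochberg) below 0.05 with more than a 2-fold change, 2 of 121 transcripts tested were called higher in sperm and 43 lower. Over all 25822 transcripts tested, 4.48% were called higher and 19.3% lower, or 23.8% in either direction. The testes side of this contrast chose the transcripts, and nothing is read from the counts. All 3 control sperm samples lay above both control testes samples in 12 of the 121 (9.92%, against 7.39% of all tested) and below in 82 (67.8%, against 44.6%). The 2 called higher were MTCONS_00017872, with a log2 fold change of 3.92 (SE 0.68), and MTCONS_00069693, with 2.38 (SE 0.86). The median log2 fold change was -1.98 over the 121 transcripts and -1.30 over all transcripts tested. Without control sperm replicate 2, the deepest of the 3, the number called in either direction fell from 45 to 15, and without control sperm replicate 4 to 20. Without control testes replicate 1 it was 16, and without control testes replicate 2 it was 19. With control sperm replicate 1 added it was 43, and with both that sample and the replicate number as a block it was 28.

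Across the 123 transcripts, the mean level in control sperm and in control testes had a Spearman rho of 0.52, while rho was 0.90 between control and cadmium sperm and 0.99 between control and cadmium testes. These values describe 1 set of transcripts measured in the same libraries, and transcripts are not replicates.

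Presence in sperm was taken first as an expected count above 0. In control sperm 89, 115, 72 and 99 of the 123 transcripts were present, which is 72.4%, 93.5%, 58.5% and 80.5%. Both cadmium sperm samples held 117, or 95.1% (95% Wilson interval 89.8 to 97.7%, which covers counting error only). Control sperm replicate 3, the shallowest at 366455 counts, held the fewest, and the 3 deepest samples, control replicate 2 and both given cadmium, held the most. The interval of control replicate 2 was 87.7 to 96.7%. The parts of depth and of cadmium in these shares were not tested.

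A level that every library could show was at least 10 CPM. At that level 64.2%, 73.2%, 55.3% and 64.2% of the transcripts were present in control sperm and 82.9% and 74.0% in cadmium sperm. The gap between the shallowest and the deepest control sample narrowed from 58.5 and 93.5% to 55.3 and 73.2%, and the lower of the cadmium samples was level with the highest control.

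Over the 6 sperm samples, 56 of the 123 transcripts were listed in all, 33 in 5, 17 in 4, 11 in 3, 2 in 2 and 3 in 1. MTCONS_00127451 alone was listed in none, with testes values of 15.0 and 10.4 FPKM in the controls and 8.29 and 13.2 FPKM after cadmium. It shares the locus MXLOC_079805 with MTCONS_00127450, which was listed in all 6 sperm samples. A count of 0 allows up to 3 counts, which is 2.39 to 8.19 CPM in the sperm samples.

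Transcripts of other classes that met the same minimum in testes were 699 known mRNAs, 355 predicted lncRNAs and 3175 known lncRNAs. Known mRNAs with a count above 0 made up 59.4%, 94.3%, 52.4% and 79.5% in control sperm and 95.7% and 95.6% in cadmium sperm. For predicted lncRNAs the shares were 62.3%, 92.1%, 55.2% and 80.0% in control sperm and 93.2% and 93.8% in cadmium sperm. The known mRNAs lay above the predicted mRNAs in control replicate 2 and after cadmium and below in the others, and the predicted lncRNAs lay below in each sample. The known lncRNAs, at 71.4%, 95.4%, 63.1% and 84.3% in control sperm and 97.1% in both cadmium samples, lay above the predicted mRNAs in 5 of the 6 samples. The gap to the known mRNAs was widest in control sperm replicate 1. At 10 CPM the known mRNAs were at 49.8 to 59.4% in control sperm and 64.2% and 62.4% in cadmium sperm, lower than the predicted mRNAs in each of the 6 samples, while the known lncRNAs, at 57.9 to 74.0% and at 79.2% and 77.7%, were higher in 4 of the 6. The listing in all 6 sperm samples was 45.5% for the predicted mRNAs, 38.8% for known mRNAs, 43.1% for predicted lncRNAs and 51.5% for known lncRNAs. No test was made between the classes, because transcripts of 1 library are not replicates.

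**Figure D3:**
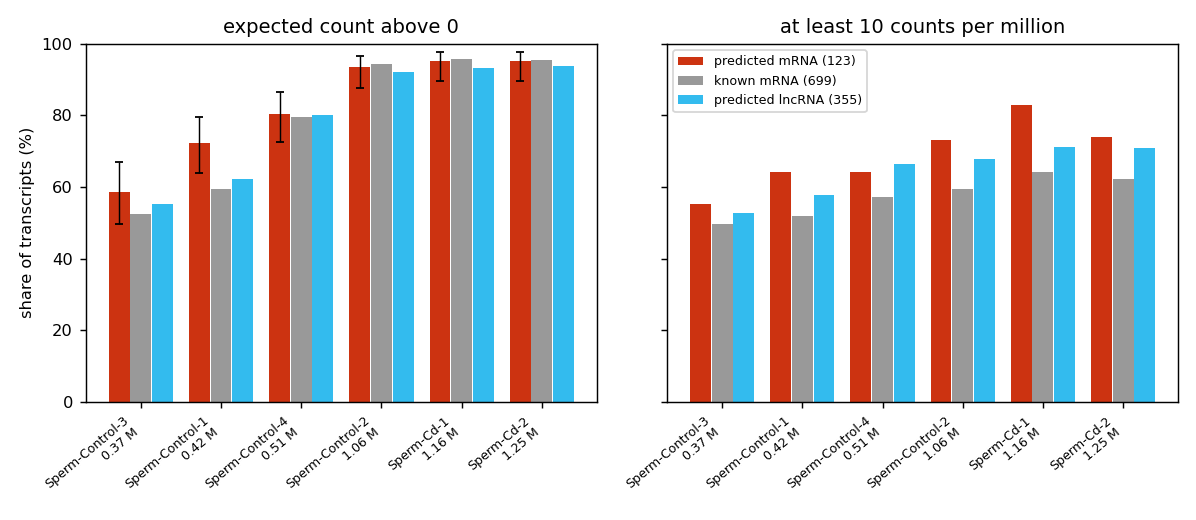
Share of transcripts present in each sperm sample, ordered by summed expected counts (under each name, M standing for 1e6 counts), for the 123 predicted mRNAs, 699 known mRNAs and 355 predicted lncRNAs over the same testes minimum, with 95% Wilson intervals for the predicted mRNAs at left. The share above 0 runs from 58.5 to 95.1% of the predicted mRNAs, and the share of at least 10 CPM (counts scaled to equal library totals) from 55.3 to 82.9%.

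On the mean of control sperm replicates 2 to 4, presence in sperm rose with the testes count, though not at each step in each sample. In control sperm replicates 2 to 4, 70.8% ± 18.2 (SD, n = 3) of the 24 predicted mRNAs with a mean testes count of 50 to 100 were present, and 73.7% ± 22.3 of the 52 at 100 to 200. The shares were 83.3% ± 15.5 of the 26 at 200 to 500 and 87.3% ± 14.5 of the 21 at 500 and over. Neighbouring bins differed by less than the spread between the samples. From the lowest bin to the next, the share fell in control replicates 2 (91.7 to 88.5%) and 3 (58.3 to 48.1%). It rose only in control replicate 4 (62.5 to 84.6%). Known mRNAs in the same bins were at 66.4, 75.8, 80.7 and 92.1%. They lay below the predicted mRNAs at 50 to 100 and at 200 to 500, and above them in the other bins. Each library measured every bin and both classes. The spread between samples therefore does not gauge a difference between bins or classes, which was not tested. The 1994 predicted mRNAs below the testes minimum were present in 6.57 to 34.8% by sample.

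The 123 transcripts were 421 to 41450 bp long, with a median of 2728 bp and quartiles of 1570 and 4350.5 bp. Known mRNAs over the same minimum had a median of 3240 bp and a longest transcript of 16107 bp. Their quartiles were 2223 and 4527.5 bp and their shortest transcript 400 bp. Of the 123, 14 (11.4%) were under 1000 bp and 9 (7.32%) were over 25000 bp, against 22 (3.15%) and 0 of the 699 known mRNAs. Over 25000 bp there were also 5 of the 355 predicted lncRNAs, 1 of the 3175 known lncRNAs and 7 of the 1994 predicted mRNAs below the minimum.

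**Figure D4:**
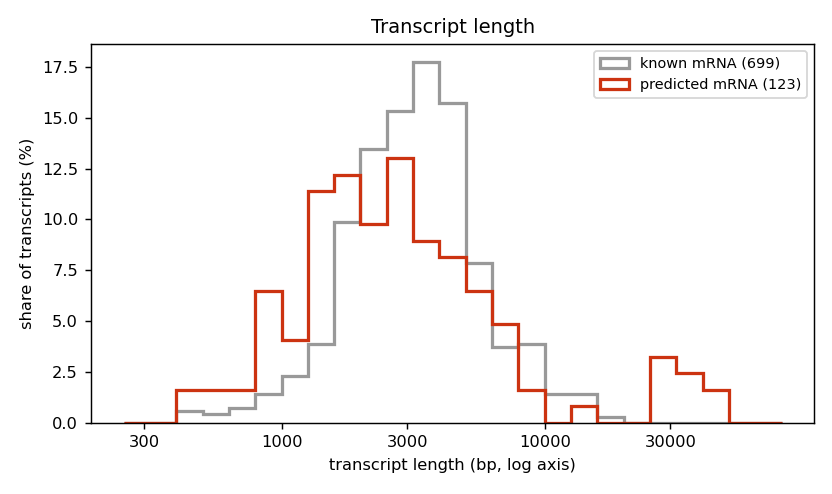
Share of the 123 predicted mRNAs and of the 699 known mRNAs over the same minimum in bins of transcript length (bp, log axis). Known mRNAs end at 16107 bp, while 9 predicted mRNAs form a separate set between 25883 and 41450 bp.

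The 5 longest were MTCONS_00032282 (41450 bp), MTCONS_00063546 (41171 bp), MTCONS_00063545 (36650 bp), MTCONS_00048657 (36008 bp) and MTCONS_00068782 (34589 bp). MTCONS_00032282 was at 4.61 and 2.56 FPKM in control testes, 4.57 and 3.17 FPKM in cadmium testes, 0.08, 0.53, 0.2 and 0 FPKM in control sperm and 1.13 and 1.02 FPKM in cadmium sperm. All of its sperm values lay below its testes values. MTCONS_00048657 was closer between the tissues, at 2.89 and 2.04 FPKM in control testes and 2.03, 1.12, 2.39 and 1.42 FPKM in control sperm, where the values overlapped. MTCONS_00068782 was at 3.00 and 1.72 FPKM in control testes, and in sperm it was listed only in control replicate 2 at 0.08 FPKM and in cadmium replicate 1 at 0.1 FPKM.

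The 5 shortest were MTCONS_00091917 (421 bp), MTCONS_00144101 (427 bp), MTCONS_00129208 (585 bp), MTCONS_00086606 (588 bp) and MTCONS_00095153 (677 bp). MTCONS_00091917 was at 87.7 and 119 FPKM in control testes, 94.3 and 112 FPKM in cadmium testes, 25.2, 0, 14.8 and 15.5 FPKM in control sperm and 11.3 and 6.3 FPKM in cadmium sperm. All 6 of its sperm values lay below all 4 testes values. MTCONS_00086606 came closer, at 68.5 and 66.5 FPKM in control testes and 61.4, 19.95, 0 and 17.5 FPKM in control sperm.

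Level and length ran in opposite directions. A short transcript needs a higher FPKM to reach 50 counts, and the part of the count minimum in this relation was not tested. The median control testes level was 104 FPKM for the 14 transcripts under 1000 bp, 29.4 FPKM for the 82 from there to 5000 bp, 8.65 FPKM for the 18 from 5000 to 25000 bp and 2.47 FPKM for the 9 longer ones. Across the 123 transcripts rho between length and level was -0.67 in control testes and -0.35 in control sperm. As for all 123, the rule gave the 9 longest at least 50 counts in each testes sample. Their median testes count was 250.5, with a range of 64.55 to 1221, against a median of 158 for the 82 of middle length. They were listed in all 6 sperm samples in 5 of 9 cases, with a median level in control sperm of 0.523 FPKM.

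The counts of these transcripts rested on divided reads more often than those of the other classes. An expected count that is not a whole number arises when fragments that match several transcripts are shared out among them. In testes 86.2 to 87.0% of the predicted mRNAs had such a count, compared with 27.3 to 30.6% of the known mRNAs, 53.0 to 55.2% of the predicted lncRNAs and 57.1 to 58.6% of the known lncRNAs over the same minimum. Of the 123, 99 (80.5%) had a whole count in no testes sample and 13 (10.6%) in all 4, against 157 (22.5%) and 443 (63.4%) of the known mRNAs. The 9 transcripts over 25000 bp had none with whole counts in all 4. Among those above in sperm, MTCONS_00032723 and MTCONS_00144686 had whole counts in all 4 testes samples, while MTCONS_00083201, MTCONS_00017872 and MTCONS_00069693 had none. At 93 of the 117 loci the tables listed a single predicted mRNA. The transcripts that share these fragments were not identified here, and the division makes the level of a single transcript uncertain.

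Of the 6 loci with a pair, 4 are described here. At MXLOC_038716, MTCONS_00061735 was at 27.4 and 34.9 FPKM in control testes and 22.5 and 42.75 FPKM in cadmium testes, and MTCONS_00061738 was at 12.8, 14.7, 15.1 and 42.15 FPKM in the same order. Both were at 0 in every sperm sample but cadmium replicate 2, where they were at 1.87 and 0.96 FPKM. At MXLOC_021686, MTCONS_00034497 was at 174 and 118 FPKM in control testes, with MTCONS_00034498 at 13.99 and 18.3 FPKM. The pair differed in sperm, where MTCONS_00034497 was listed in control replicate 2 (5.12 FPKM) and both cadmium samples (8.98 and 4.80 FPKM) and MTCONS_00034498 only in control replicates 3 (13.3 FPKM) and 4 (4.10 FPKM). No sperm sample listed both. At MXLOC_021681, MTCONS_00034491 and MTCONS_00034492 were at 68.8 and 40.05 FPKM on average in control testes and at 1.42 and 0.967 FPKM in control sperm. At MXLOC_039839 both MTCONS_00063545 and MTCONS_00063546 were among the 5 longest and were listed in all 6 sperm samples.

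The testes samples differed more by replicate number than by treatment. MTCONS_00003248 (840 bp) was at 382 and 144 FPKM in control testes and at 365 and 131 FPKM in cadmium testes. MTCONS_00127472 (817 bp) was at 261 and 110 FPKM in control testes and 218 and 109 FPKM in cadmium testes. MTCONS_00034491 (5238 bp) was at 101 and 37.1 FPKM in control testes and 87.8 and 37.5 FPKM in cadmium testes. In each, both replicate 1 samples were well above both replicate 2 samples, whichever the treatment.

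In all, 75 of the 123 transcripts were higher in replicate 1 in both treatments, 31 were higher in replicate 2 in both, and 17 were mixed. More than 2-fold higher in replicate 1 in both treatments were 15 transcripts (12.2%), and none was more than 2-fold higher in replicate 2 in both. Of the 4352 transcripts of all classes over the minimum, 5.93% were more than 2-fold higher in replicate 1 in both treatments and 0.827% in replicate 2. The median log2 ratio of replicate 1 to replicate 2 was 0.30 in control and 0.37 in cadmium testes for the predicted mRNAs, -0.25 and -0.10 for known mRNAs, and -0.13 and -0.01 for all classes together. All 15 were among the 99 transcripts with a whole count in no testes sample, and none was among the 13 with whole counts in all 4. The labels do not say what the replicate number stands for, and the part of divided reads in this difference was not tested.

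**Figure D5:**
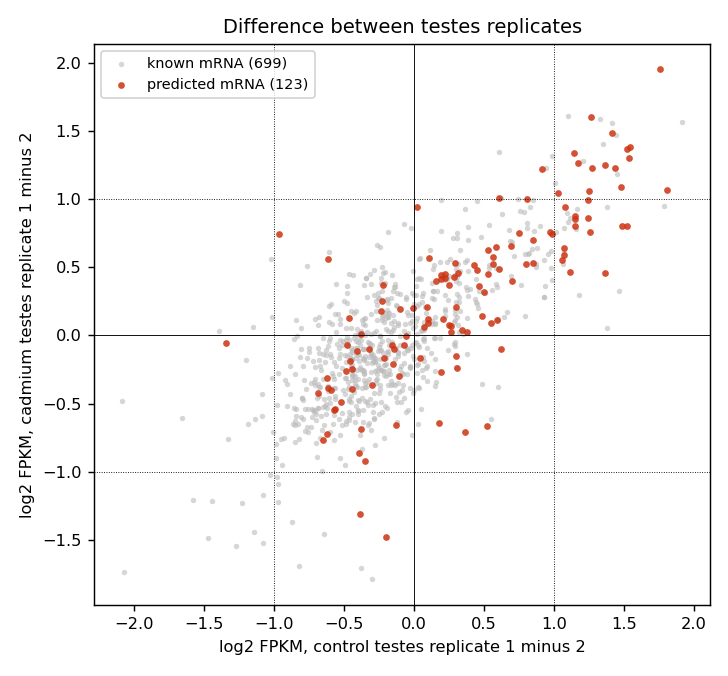
log2 of the FPKM of replicate 1 over replicate 2 in cadmium testes against the same in control testes, for the 123 predicted mRNAs and the 699 known mRNAs over the same minimum, with dotted lines at 2-fold. In the upper right corner, more than 2-fold higher in replicate 1 in both, lie 15 predicted and 9 known mRNAs, and in the lower left corner 0 predicted and 10 known mRNAs.

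Cadmium was compared with saline in testes over 122 of the transcripts that passed 1 FPKM in at least 2 samples. None was called by edgeR's quasi-likelihood test, none had an unadjusted p under 0.05, and DESeq2 and limma also called none. Over all 28423 transcripts tested, 0% were called by edgeR, with 345 at an unadjusted p under 0.05, and DESeq2 called 26. The testes values chose the transcripts, and nothing is read from these counts. The median absolute log2 difference of the 123 transcripts was 0.172 between treatments and 0.501 between replicates. Groups did not overlap in 6 transcripts that were higher after cadmium (4.92%, against 8.51% of all tested) and 5 that were lower (4.10%, against 10.3%).

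The largest of the higher ones was MTCONS_00061738, described above, at 12.8 and 14.7 FPKM in the controls and 15.1 and 42.15 FPKM after cadmium, where 1 sample stood apart. Its log2 fold change was 1.20 (SE 0.63). MTCONS_00063546 followed with 4.20 and 3.53 FPKM in the controls and 5.17 and 4.91 FPKM after cadmium, a log2 fold change of 0.46 (SE 0.44). MTCONS_00121080 (27494 bp) was at 0.95 and 0.77 FPKM in the controls and 1.20 and 1.04 FPKM after cadmium. Of the lower ones, MTCONS_00115368 went from 14.5 and 12.7 FPKM to 9.21 and 11.1 FPKM, a log2 fold change of -0.32 (SE 0.46). MTCONS_00004544 and MTCONS_00013720 had log2 fold changes of -0.18 and -0.15, both smaller than their SE and both positive without control testes replicate 2.

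Cadmium against saline in sperm is the contrast that the choice of transcripts left free. Of 112 transcripts tested, none was called by edgeR's quasi-likelihood test and 5 had an unadjusted p under 0.05, with the smallest adjusted p at 0.542. DESeq2 and limma also called none. Of all 21865 transcripts tested, 0.224% were called, 0.0823% higher and 0.142% lower. The median log2 fold change was 0.55 over the 112 transcripts and 0.37 over all tested, and values above 0 were found for 87 of the 112 (77.7%) and for 63.6% of all tested. The median SE of a single log2 fold change was 1.08.

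Both cadmium samples lay above control sperm replicates 2 to 4 in 35 of the 112 transcripts (31.25%, against 21.8% of all tested), and below in 1 (0.893%, against 1.88%). With control sperm replicate 1 added there were 28 of the first kind, and without cadmium sperm replicate 2 there were 56. The cadmium libraries were deeper than every control, at 1155491 and 1254477 counts, and whether depth has a part in the count was not tested. The minimum of 1 FPKM in 2 samples could also be met by the 2 cadmium samples alone. MTCONS_00037189 passed in this way, at 0.62, 0 and 0 FPKM in control sperm replicates 2 to 4 and 5.67 and 3.66 FPKM after cadmium. Such transcripts count in these shares and in those above 0, and nothing is read from either.

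The smallest p belonged to MTCONS_00127472, at 34.1, 72.5, 35.7 and 33.6 FPKM in control sperm and 277 and 167 FPKM in cadmium sperm. Both cadmium samples were more than 2-fold above every control, and its log2 fold change was 2.12 (SE 0.70), with an adjusted p of 0.542 by edgeR. It is also one of the transcripts that differed by replicate number in testes, where its values after cadmium lay within the range of the controls or just under it. MTCONS_00084734 (1561 bp) was at 87.8, 59.3, 0 and 67.4 FPKM in control sperm and 178 and 118 FPKM in cadmium sperm, a log2 fold change of 1.68 (SE 0.63). MTCONS_00144692 (6467 bp) was at 15.3, 19.0, 4.24 and 9.66 FPKM in control sperm and 42.9 and 26.2 FPKM in cadmium sperm, a log2 fold change of 1.498 (SE 0.63). In these transcripts too both cadmium samples lay above all 4 controls, with an adjusted p of 0.542 by edgeR for each.

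Lower after cadmium was MTCONS_00034498, at 0, 0, 13.3 and 4.10 FPKM in control sperm and listed at 0 in both cadmium samples. Since 2 of the 4 controls were at 0 as well, the groups overlapped, and no fold is given. MTCONS_00094054 (986 bp) was at 25.02, 0.37, 37.9 and 0 FPKM in control sperm and at 0 and 2.07 FPKM in cadmium sperm, so that the cadmium values lay within the range of the controls. MTCONS_00122784 (1915 bp) was at 21.4, 15.6, 51.9 and 9.66 FPKM in control sperm and 14.5 and 9.49 FPKM in cadmium sperm, with a log2 fold change of -1.01 and an unadjusted p of 0.314 by edgeR.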

How the data were processed

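RNA of sperm and testes, rid of rRNA by RNase H, was sequenced from both ends of each fragment. The study states alignment with SOAPaligner/SOAP2, whereas the submitters' processing notes name HISAT and mm10; the tool that gave the expected counts is not given in the sources used here. The authors deposited for each of 10 samples an expected count, not normalized, and an FPKM, scaled by length and library size, for transcripts above 0. Unlisted transcripts were taken as 0. Control sperm samples were pools of mice. The transcripts described, the comparison classes and the marker lists were chosen with earlier results of these data known.

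Expected counts were rounded and tested with edgeR 4.0.16 (R 4.3.3, TMM, quasi-likelihood test) where a transcript reached 1 FPKM in 2 or more samples compared, and called at an adjusted p (Benjamini-Hochberg) below 0.05 with more than a 2-fold change. The SE was derived from the log2 fold change and the square root of F. DESeq2 1.42.0, and limma 3.58.1 on log2(FPKM + 1) or log2(FPKM + 0.1), were alternatives, as were other minimums, RLE size factors, no filter, sums per locus, left-out replicates and a replicate block. The edgeR test was checked on simulated data. Shares, medians and Spearman's rho were computed with Python 3.11.15, pandas 2.3.3 and scipy 1.17.1. Known mRNAs carry RefSeq identifiers and predicted mRNAs identifiers of the authors' assembly.

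Transcripts named were the 10 highest in control testes and in control sperm, the 5 longest and 5 shortest, those listed in no sperm sample, the 3 of smallest p in each direction in sperm, the 3 largest non-overlapping differences in each direction in testes, those nearest the minimum, and the loci with most of the 123. The transcripts above testes in all sperm samples were named after their values were seen, as was MTCONS_00034491 among the replicate differences. Sequences and positions of the predicted mRNAs were not analysed here. Replicate libraries of a group differed by more than sampling noise, with a chi-square per degree of freedom of 5.44 to 33.3 over the 123 transcripts.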

Additional observations from a re-analysis of the deposited data

Results flagged for a closer look

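In control sperm, 8 of the 52 groups of 4 values examined, over named transcripts and summary measures, had a sample whose gap to its nearest neighbour was a larger share of the whole range than Dixon's 95% critical value, where chance gives about 1 in 20 for untied values. Control sperm replicate 2 was the sample above the others for MTCONS_00013720 (2.47 FPKM), MTCONS_00034497 (5.12 FPKM), MTCONS_00037964 (0.4 FPKM), MTCONS_00067980 (3.86 FPKM) and MTCONS_00068782 (0.08 FPKM), with the other 3 controls at 0. The ratio of 1 in each of these is fixed by the tie at 0, so the chance rate does not apply to them. It also stood above the others for MTCONS_00127472, at 72.5 FPKM against 33.6 to 35.7 FPKM, with a ratio of 0.945. Its library was the deepest of the controls, at 1058017 counts, and the part of depth was not tested. Control sperm replicate 3 was below the others for MTCONS_00032947, at 130.5 FPKM against 208 to 223 FPKM (ratio 0.843), and for MTCONS_00083201, at 932 FPKM against 1242 to 1299 FPKM (ratio 0.843).

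For MTCONS_00013720 the samples did not overlap between treatments in either tissue, cadmium being above in sperm and below in testes. It was at 6.01 and 6.60 FPKM in cadmium sperm against 2.47, 0 and 0 FPKM in control replicates 2 to 4, and at 9.18 and 9.2 FPKM in cadmium testes against 10.5 and 10.9 FPKM in the controls. Neither contrast was called by edgeR, with log2 fold changes of 2.45 (SE 1.68) in sperm and -0.15 (SE 0.47) in testes, and the latter was 0.094 without control testes replicate 2. The log2 ratio of means in sperm, where 2 of the 3 controls were at 0, minus that in testes was 3.16, and this difference was not tested.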

How the results depend on the processing

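A minimum of 20, 50 or 100 counts in each testes sample gave 221, 123 or 69 predicted mRNAs, and a minimum of 1 FPKM gave 438. Their median control testes level was 13.1, 27.2, 53.5 and 6.31 FPKM in that order. The 1 FPKM minimum also moved the median length from 2728 to 1796 bp and the share present in control sperm from 77.5% ± 17.7 (SD, n = 3) to 50.5%. For the 123 predicted mRNAs the share was 69.5 to 87.0% without 1 control replicate. The log2 ratio of the mean level in control sperm to control testes was -0.87, and -0.70 with the 20-count minimum, -0.60 with the 1 FPKM minimum and -2.02 on medians. Leaving out a sample gave -0.95 to -0.79.

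The 45 calls between control sperm and testes became 25 with no filter, 16 with limma on log2(FPKM + 0.1), 43 with control sperm replicate 1 added and 28 with that sample and the replicate block, and ranged from 15 to 53 with 1 replicate left out. The lone sample of an arm is then assumed to vary like the others. No cadmium setting called any of the predicted mRNAs. Over all transcripts, calls for cadmium in sperm were 49, and 0 to 53 by setting (26 with DESeq2, 11 with RLE size factors, 51 with control sperm replicate 1 added, 33 with that sample and the block). In testes they were 0, and 354 with no filter, 26 with DESeq2, 15 with the block and 68 to 110 with 1 replicate left out. Over all transcripts between sperm and testes they were 6144, and 796 to 7696. The cause of these shifts was not tested. The log2 fold changes in testes of MTCONS_00004544 and MTCONS_00013720 ranged from -0.40 to 0.093 and from -0.36 to 0.094 with 1 replicate left out, and were positive without control testes replicate 2.

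Same-numbered samples had correlated deviations of 0.40 in testes, over 28423 transcripts, and -0.03 in sperm, over 20639, with 2 pairs each. In testes the correlation was 0.78 over the 123 predicted mRNAs and 0.81 over the 4352 transcripts of all classes above the count minimum. With so few pairs, and no label that says what the number marks, the samples were not taken as paired. The main testes test therefore keeps the difference between replicate numbers in its spread. With the replicate number as a block, 4 of the predicted mRNAs had an unadjusted p under 0.05 in either cadmium comparison and none was called. Chosen after seeing the data were the settings for the 35 transcripts above all controls in cadmium sperm (42 to 56 with 1 replicate left out) and for the 15 that differed by testes replicate (16 and 17 with other scalings). In the shallowest library 3 counts were 8.19 CPM, and the part of depth in presence in sperm was not tested.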
